A study of Mus musculus with 24 samples.

Results

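The nuclear-encoded subunits of the mitochondrial respiratory chain and of the ATP synthase were followed in mouse tumours treated with an inhibitor of insulin-like growth factor 1 and insulin receptors, with hydroxychloroquine, or with both. Members were the genes whose symbol on the array platform begins with Ndufa, Ndufb, Ndufc, Ndufs or Ndufv and a number, is Ndufab1 or Sdha, Sdhb, Sdhc or Sdhd, or begins with Uqcr, Cox4 to Cox8 or Atp5. The rule found 85 of the 19505 genes measured, each with 1 probe set. They were 36 genes of complex I, 4 of complex II, 8 of complex III, 20 of complex IV and 17 of the ATP synthase. Ndufa4 and its paralogue Ndufa4l2 were counted with complex IV, as was Cox7a2l, which joins complexes III and IV into supercomplexes. Of the 13 subunits encoded by mitochondrial DNA, 0 were measured under the symbols searched, so they were not analysed here.

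RNA came from 24 tumours of a pancreatic ductal adenocarcinoma (PDAC) series, hybridised to Clariom S arrays, in 4 groups of 6. Control tumours received what the labels call vector. The other groups received BMS754807, a small molecule inhibitor of the IGF1 and insulin receptors, or hydroxychloroquine, which raises lysosomal pH and blocks the last step of autophagy, or both agents together (the combination). The labels give no strain, genotype, age, dose, duration or tumour site, and leave unsaid whether each tumour is from an animal of its own, so errors and p-values describe the spread between these samples. Values are log2 signal. A level of one gene cannot be set against the level of another on this array, because probe sets differ in their response.

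The respiratory chain passes electrons from NADH (complex I) and succinate (complex II) through complex III and cytochrome c to oxygen at complex IV. Complexes I, III and IV pump protons out of the matrix, and the ATP synthase uses the returning protons to make ATP. Most subunits are encoded in the nucleus, and several complex IV subunits exist as a common form and a form found mainly in heart and skeletal muscle, lung or testis. Autophagy is one route by which cells dispose of whole mitochondria, and insulin and IGF signalling is one of the inputs to mitochondrial gene expression.

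Promoters of many respiratory genes are known to hold sites for NRF1, for the ETS factor GABP and for YY1. A RefSeq window of 300 bases (250 before to 50 after the start, assembly GRCm38.p6) was matched by gene identifier for 70 of the 85 members. Each window was searched on both strands. The NRF1 core was searched as GCGCATGCG and the YY1 core as AAGATGGCG. The letters used for the ETS core bound by GABP were CCGGAAG. The TATA box was taken as the letters TATAAA. The NRF1 core overlaps itself on the opposite strand within the run GCGCATGCGC, and such a run counts once for its gene. Windows of 4 complex IV and complex I members are printed 5′ to 3′ with motif letters in capitals, because they contrast a common and a muscle form of one subunit (Cox8a and Cox8b) and show members with an NRF1 core (Cox6a1 and Ndufa11). The windows are Cox8a at chr19:7217567-7217866 on the minus strand, Cox8b at chr7:140900397-140900696 on the minus strand, Cox6a1 at chr5:115348909-115349208 on the minus strand and Ndufa11 at chr17:56717512-56717811 on the plus strand.
Cox8a: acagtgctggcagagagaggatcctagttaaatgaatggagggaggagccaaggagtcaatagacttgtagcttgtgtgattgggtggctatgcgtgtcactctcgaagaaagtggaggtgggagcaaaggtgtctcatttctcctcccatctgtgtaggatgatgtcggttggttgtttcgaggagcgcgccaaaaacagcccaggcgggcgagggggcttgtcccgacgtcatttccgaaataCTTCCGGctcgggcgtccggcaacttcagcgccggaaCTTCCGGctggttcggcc
Cox8b: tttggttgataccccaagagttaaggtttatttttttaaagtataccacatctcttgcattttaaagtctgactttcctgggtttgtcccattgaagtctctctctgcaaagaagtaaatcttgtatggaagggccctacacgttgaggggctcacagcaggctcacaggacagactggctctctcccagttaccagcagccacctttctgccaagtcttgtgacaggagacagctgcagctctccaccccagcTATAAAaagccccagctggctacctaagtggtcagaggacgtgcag
Cox6a1: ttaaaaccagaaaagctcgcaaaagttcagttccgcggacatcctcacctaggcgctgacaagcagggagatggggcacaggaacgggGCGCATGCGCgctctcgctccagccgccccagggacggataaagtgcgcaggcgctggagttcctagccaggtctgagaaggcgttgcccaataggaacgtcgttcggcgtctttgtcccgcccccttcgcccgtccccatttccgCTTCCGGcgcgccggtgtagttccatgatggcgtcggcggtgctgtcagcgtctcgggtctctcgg
Ndufa11: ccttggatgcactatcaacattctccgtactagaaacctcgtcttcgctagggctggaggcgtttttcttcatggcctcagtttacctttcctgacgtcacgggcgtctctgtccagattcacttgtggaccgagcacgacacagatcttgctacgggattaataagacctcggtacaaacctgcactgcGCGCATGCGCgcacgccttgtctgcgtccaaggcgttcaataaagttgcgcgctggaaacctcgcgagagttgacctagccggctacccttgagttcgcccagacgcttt
The Cox8a window holds 2 ETS cores, at both sides of its start. The Cox8b window holds the letters TATAAA just after its annotated start (offset 4) and none of the other 3 motifs. Cox6a1 has an NRF1 core further upstream and an ETS core close to the start, and Ndufa11 has an NRF1 core alone. Of the 70 members with a window, 8 (11.4%) held the NRF1 core, against 2.71% of the 15691 measured genes with a window. The ETS core stood in 17 members (24.3%) against 13.2%, and the YY1 core in 7 (10%) against 2.23%. The TATA box stood in 8 members (11.4%) against 14.6%. In all, 27 of 70 members (38.6%) and 17% of measured genes held an NRF1, ETS or YY1 core. All 7 YY1 matches were in complex I (5 genes, among them Ndufs4 and Ndufa9) or in the ATP synthase (Atp5j and Atp5j2). A match describes letters in a window and is not evidence of a bound site.

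Several features of the tumours bear on these genes. Epcam, an epithelial surface protein, lay between 10.68 and 14.92 log2 in all 24 tumours. The score of 16 skeletal muscle genes (mean deviation from each gene's 24-tumour mean; 16 of 16 measured, none of them a member) ran from -2.03 to 3.72 in control, -1.86 to 4.04 with BMS754807, -2.12 to 6.44 with hydroxychloroquine and -2.05 to 5.12 in the combination. It was above 1 in 5 tumours, called muscle-rich here: control 5, BMS754807 2 and 6, hydroxychloroquine 5 and combination 1. The score of 9 measured adipocyte genes of 10 ran from -1.11 to 1.09, -1.86 to 4.64, -1.73 to 2.35 and -2.09 to 2.06 in the same order of groups, and was highest in BMS754807 tumour 6. On this scale no marker has a true zero. In bulk tissue, fewer cells of a type and less RNA per cell cannot be told apart.

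The treatment groups overlapped broadly for the subunits as a whole. Each tumour's median deviation over the 85 members, taken from each gene's 24-tumour mean, was -0.07 at the lowest, 0.01 at the median and 0.09 at the highest in control. With BMS754807 these were -0.14, 0.01 and 0.23, and with hydroxychloroquine -0.21, 0.02 and 0.21. In the combination they were -0.135, -0.05 and 0.11. Tumours within a group differed more than the groups did, and the SD of these medians pooled within groups was 0.117. In control, 25 to 54 of the 85 members lay above their own 24-tumour mean, against 22 to 67 with BMS754807, 17 to 68 with hydroxychloroquine and 14 to 68 in the combination.

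**Figure D1:**
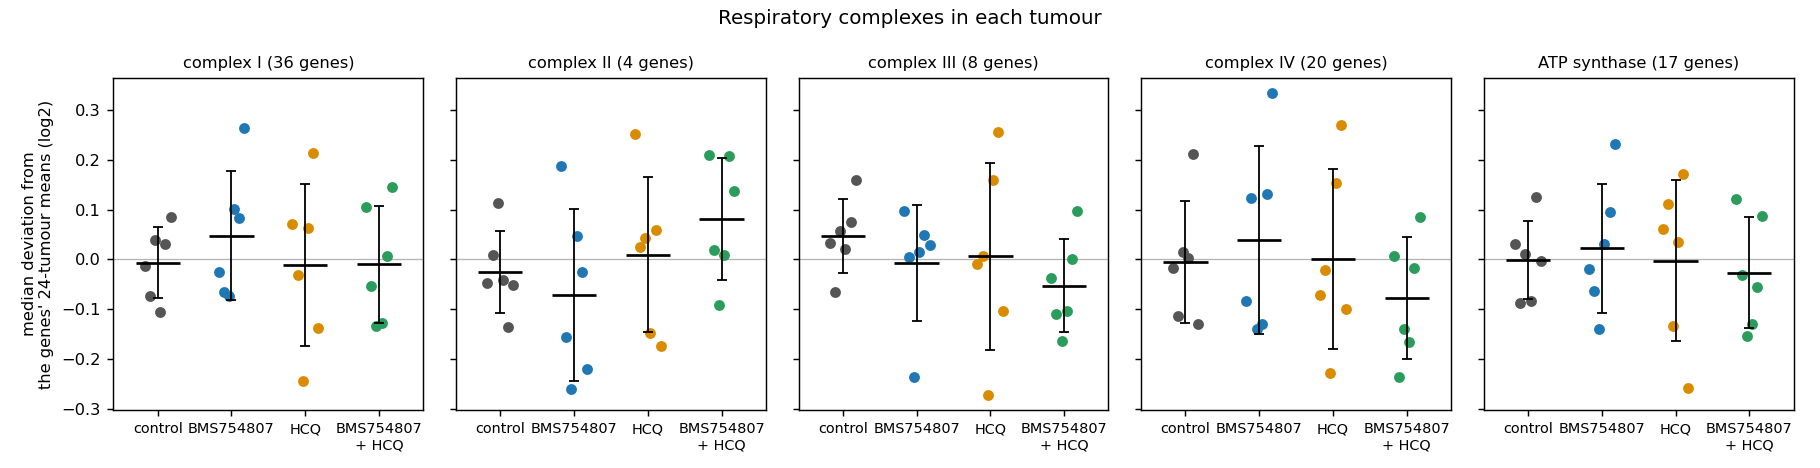
Median deviation of the genes of each complex from their 24-tumour means (log2) in every tumour, by treatment group; HCQ is hydroxychloroquine, points are tumours, bars the mean and whiskers the SD (n = 6). All groups overlap in all 5 panels, and complex II in the combination has the highest group mean of its panel, at 0.08.

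The tumours at the ends of this range were high or low over several complexes. BMS754807 tumour 6 had 67 of 85 members above their own mean, with medians of 0.26 for complex I, 0.33 for complex IV and 0.23 for the ATP synthase, but -0.22 for complex II. Hydroxychloroquine tumour 5 and combination tumour 6 each had 68 members above. At the other end, hydroxychloroquine tumour 3 had 17 members above, combination tumour 3 had 18 and combination tumour 4 had 14. Of the high tumours, BMS754807 tumour 6 had muscle, adipocyte, macrophage and epithelial scores of 2.89, 4.64, 1.82 and -0.92, and the lowest array weight of all 24 in limma (0.419). Hydroxychloroquine tumour 5 scored 6.44, -1.54, 0.30 and -0.27 on the same lists, and combination tumour 6 scored -2.05, 0.44, -0.88 and 0.54. The high tumours differed from each other in these markers. The low tumours all had positive epithelial and negative macrophage scores: hydroxychloroquine tumour 3 had 0.63 and -0.90, combination tumour 3 had 0.63 and -0.77, and combination tumour 4 had 0.57 and -0.46, while the high combination tumour 6 had values of the same signs. The part of other cell types in the subunit levels was not tested.

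**Figure D2:**
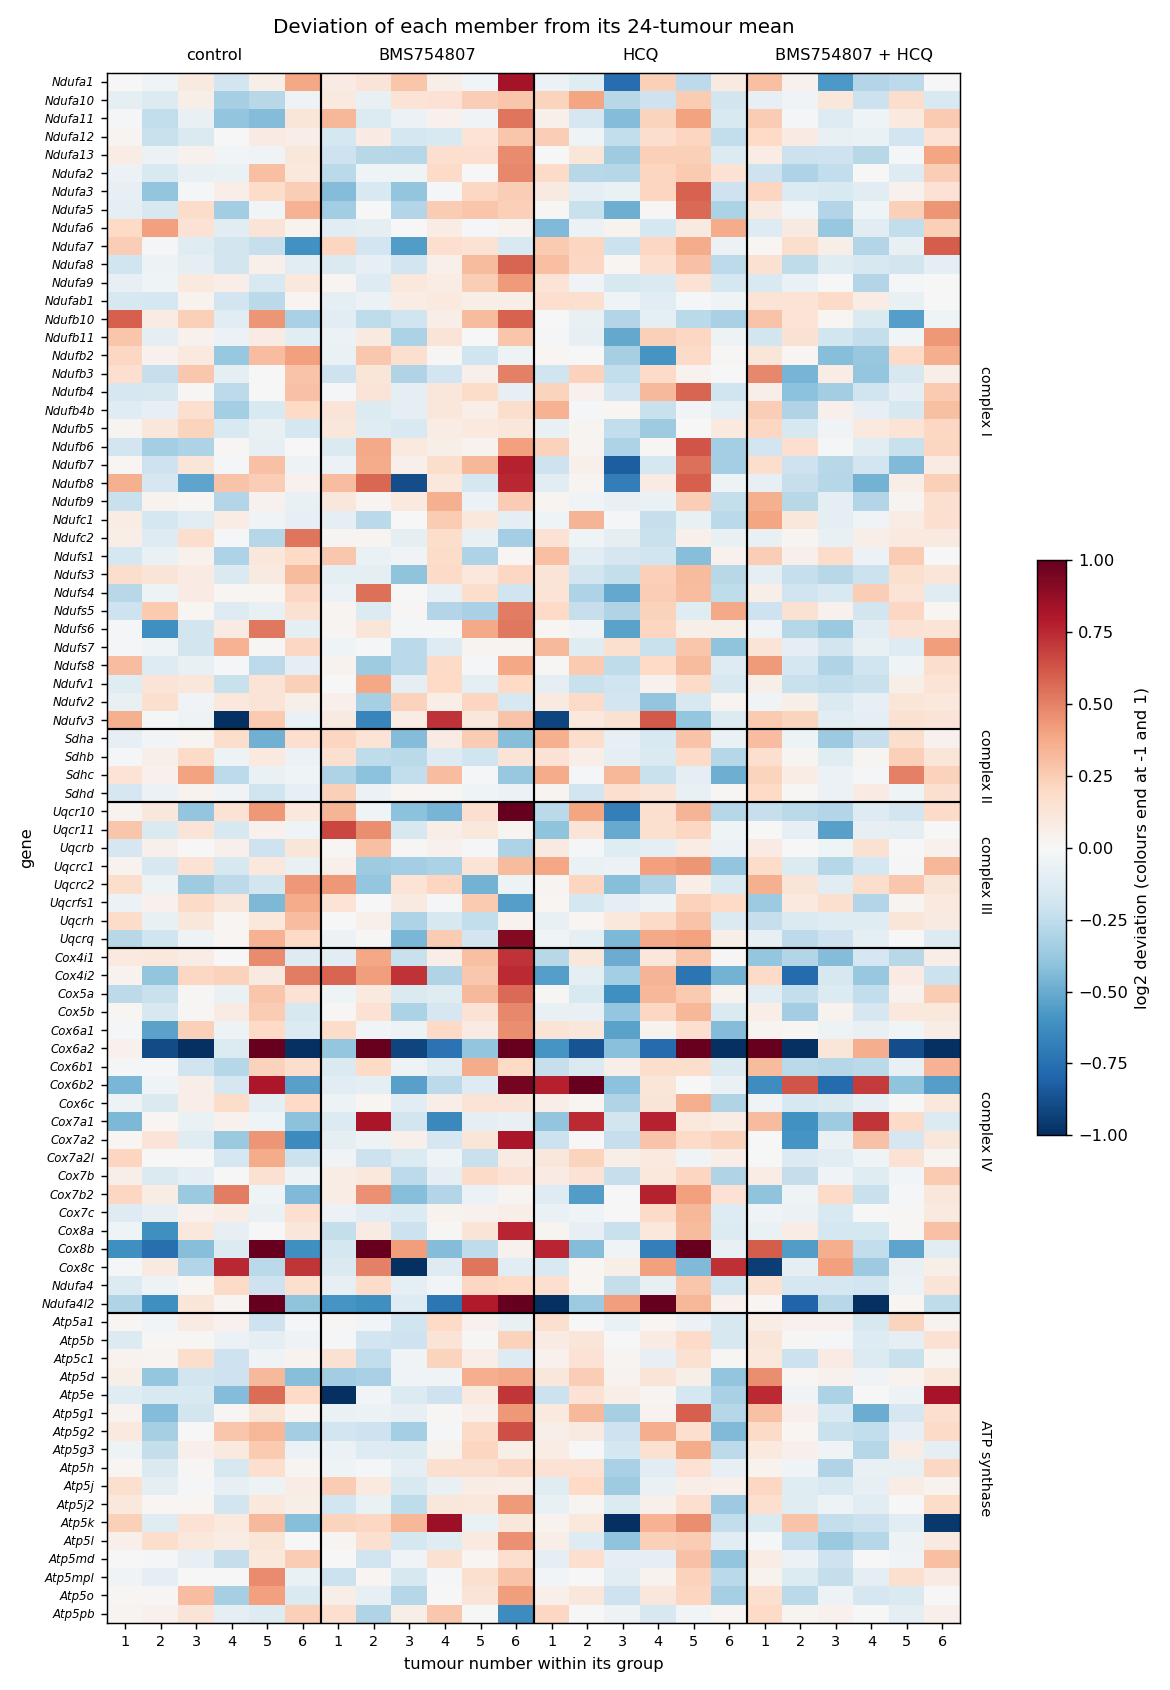
Deviation of each of the 85 members (rows, by complex) from its 24-tumour mean in every tumour (columns, by group; log2, colours end at -1 and 1); HCQ is hydroxychloroquine. BMS754807 tumour 6 and hydroxychloroquine tumour 5 are red in most rows (67 and 68 of 85 above their mean), and hydroxychloroquine tumour 3 is mostly blue (17 of 85 above).

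No subunit passed the test in any comparison. A linear model over all 24 tumours (limma) gave 0 members with a Benjamini-Hochberg adjusted p under 0.05 in the 3 comparisons with control, in the combination against each single agent, in the average effect of each agent over the presence and absence of the other (main effect) and in the interaction. The background was the same: 0% of 19505 genes passed in each of the 8. At an unadjusted p under 0.05, 2 members stood out for BMS754807 against control (5.88% of all genes), 1 for hydroxychloroquine against control (4.81%), 2 for the combination against control (5.06%), 8 for the combination against BMS754807 (8.61%) and 0 for the combination against hydroxychloroquine (5.39%). For the main effects the counts were 1 for BMS754807 (5.72%) and 4 for hydroxychloroquine (8.09%), and for the interaction 1 (5.05%). Set against these shares of all genes, no count of members stands clear of the background, and 8 of 85 is close to the share of its comparison.

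With BMS754807 alone, 57 of 85 members lay above control (median difference 0.04 log2), against 9780 of 19505 genes (50.1%, median 0.0017). This count rested on single tumours. Without BMS754807 tumour 6 it was 44 of 85 with a median of 0.0077, and without tumour 3 it was 63 with a median of 0.086. Without the 5 muscle-rich tumours it was 45 of 85, with a median of 0.0165. In the same comparison 16 of 16 muscle, 9 of 9 adipocyte, 7 of 7 fibroblast and 11 of 13 epithelial genes lay above control (medians 1.19, 1.14, 0.19 and 0.12), with 3 of 7 macrophage and 1 of 5 leukocyte genes, and their part in the count was not tested.

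For hydroxychloroquine against control, 40 of 85 members lay above 0 with a median of -0.0033, but 22 of 85 and a median of -0.067 when each array was centred on its median. In the combination against control, 36 lay above 0 (median -0.025), and 46 of 85 without control tumour 5 (median 0.0073). Against BMS754807 the combination had 27 of 85 above 0 (median -0.048), and 38 without BMS754807 tumour 6 (median -0.017). Markers of other cell types lay lower in the same comparison: 0 of 9 adipocyte genes were above 0 (median -1.36), 1 of 16 muscle genes (-0.98), 0 of 7 macrophage genes (-0.54), 0 of 7 fibroblast genes (-0.20) and 1 of 5 leukocyte genes (-0.31), but 10 of 13 epithelial genes (0.405). Their part in the subunit values was not tested. Against hydroxychloroquine the combination had 33 members above 0 (median -0.043), and 51 without hydroxychloroquine tumour 5 (median 0.013). Of all genes, 49.7% lay above control with hydroxychloroquine and 51.4% in the combination. For the combination, 49.3% of all genes lay above BMS754807 and 51.8% above hydroxychloroquine. The same 6 control tumours serve all 3 comparisons with control, so those are not independent of one another. All of these medians are smaller than the SD of the single tumours' medians pooled within groups (0.117). By group that SD ran from 0.059 in control to 0.156 with hydroxychloroquine. It describes single tumours, so it is a wide yardstick for differences between means of 6.

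**Figure D3:**
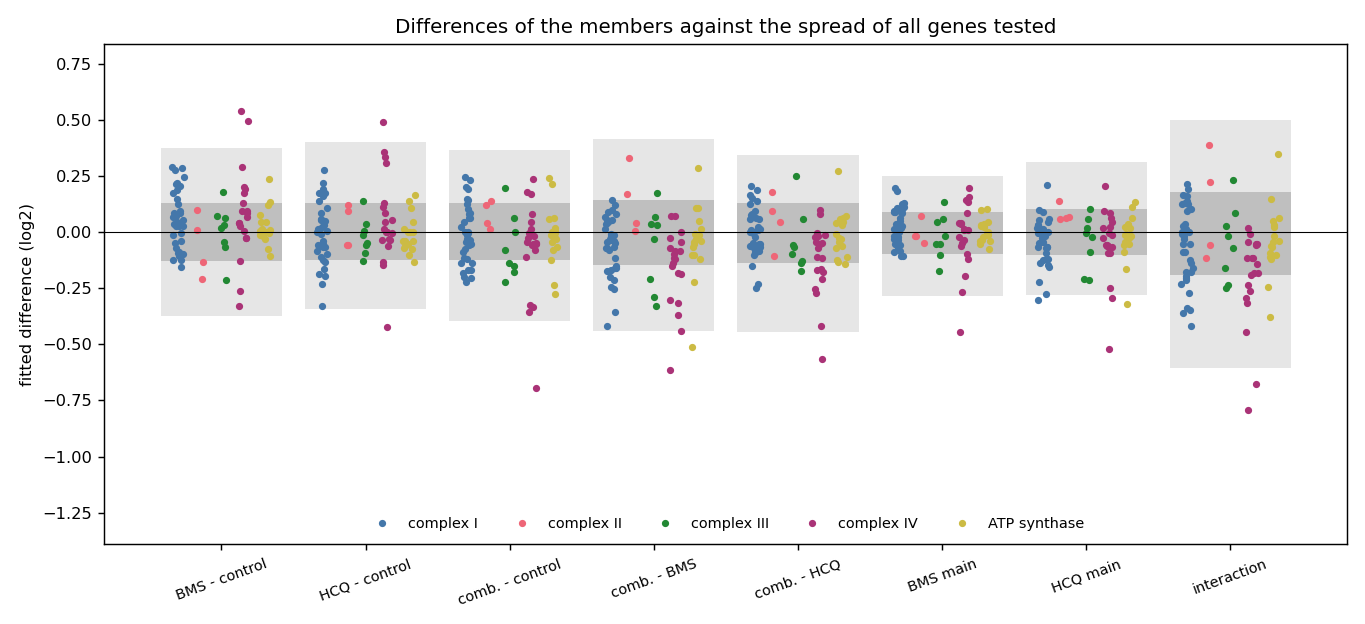
Fitted log2 difference of each member (points, coloured by complex) in the 8 comparisons, over the range of all 19505 genes (dark band, middle 50% of genes; light band, middle 90%); BMS is BMS754807, HCQ hydroxychloroquine and comb. the combination. Most members lie within the bands and 19 of 20 complex IV genes lie below 0 in the interaction.

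Complex I oxidises NADH through a matrix arm of flavin and iron-sulfur subunits and pumps protons through a membrane arm. Of its 36 members, 24 lay above control with BMS754807 (median difference 0.044), 17 with hydroxychloroquine (-0.022) and 16 in the combination (-0.021). Ndufa10, an accessory subunit of the membrane arm, had 11.34, 11.56 and 11.73 log2 (lowest, median and highest) in control and 11.60, 11.81 and 11.95 with BMS754807. It had 11.40, 11.70 and 12.07 with hydroxychloroquine and 11.46, 11.61 and 11.85 in the combination. All 6 BMS754807 tumours were above the control mean, although the groups overlapped, with a difference of 0.28 ± 0.12 log2 (SE; limma, adjusted p = 0.839).

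Ndufb6 and Ndufa11, also of the membrane arm, followed Ndufa10 in smallest p with BMS754807, while others of that arm such as Ndufb10 (-0.087) and Ndufb2 (-0.095) had means below control. Ndufb6 lay at 10.20, 10.40 and 10.55 in control and at 10.40, 10.62 and 10.95 with BMS754807, a difference of 0.29 ± 0.14 (adjusted p = 0.860), or 0.18 without the muscle-rich tumours. Ndufa11, whose promoter is shown above, lay at 9.29, 9.56 and 9.85 in control, 9.59, 9.73 and 10.26 with BMS754807 and 9.60, 9.77 and 9.99 in the combination. For both genes 6 of 6 BMS754807 tumours were above the control mean. The combination differed from control by 0.24 ± 0.14 at Ndufa11 (6 of 6 above; adjusted p = 0.944), or by 0.156 without the muscle-rich tumours.

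Ndufab1 is the mitochondrial acyl carrier protein, which serves complex I, lipoic acid synthesis and iron-sulfur cluster assembly. It was the least variable complex I member, with a residual SD of 0.106. Control tumours had 12.73, 12.84 and 13.04, and combination tumours 12.93, 13.11 and 13.19. All 6 combination tumours and all 6 hydroxychloroquine tumours (12.89, 12.97 and 13.17) were above the control mean. The differences were 0.20 ± 0.085 (adjusted p = 0.944) and 0.14 ± 0.085 (adjusted p = 0.979), the latter 0.078 with each array centred on its median. Ndufa6, which binds Ndufab1, went the other way in the combination, with 11.92, 12.16 and 12.44 in control and 11.65, 11.91 and 12.27 in the combination (-0.22 ± 0.12, adjusted p = 0.944).

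With hydroxychloroquine alone the complex I members of smallest p were mixed in direction. Ndufa8, an accessory subunit facing the intermembrane space, differed from control by 0.22 ± 0.13 (adjusted p = 0.979), and Ndufa7 of the matrix arm by 0.28 ± 0.16 (adjusted p = 0.979). Ndufb10 of the membrane arm had 8.19, 8.67 and 9.11 in control against 8.19, 8.33 and 8.51 with hydroxychloroquine. None of 6 treated tumours was above the control mean there (-0.33 ± 0.16, adjusted p = 0.979). Ndufb2 gave -0.23 ± 0.16 (adjusted p = 0.979), and -0.14 without hydroxychloroquine tumour 4. The most variable complex I member was Ndufv3, an accessory subunit of the NADH-oxidising end, from 5.82 in control tumour 4 to 7.64 in BMS754807 tumour 4.

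Complex II, succinate dehydrogenase, belongs to both the respiratory chain and the tricarboxylic acid (TCA) cycle, and none of its subunits is encoded by mitochondrial DNA. In the combination 4 of 4 members were above control (median difference 0.082) and 4 of 4 above BMS754807 (median 0.11). Under quantile normalization, and again under centring of each array, 3 of 4 were above in each of these comparisons, and without the muscle-rich tumours 3 and 2 of 4 were. Sdhc, a membrane anchor, had 10.03, 10.29 and 10.69 in control, 9.88, 10.01 and 10.60 with BMS754807, 9.80, 10.23 and 10.66 with hydroxychloroquine and 10.23, 10.44 and 10.79 in the combination. The combination and BMS754807 groups overlapped, as BMS754807 tumours 4 and 5 had 10.60 and 10.28. All 6 combination tumours were above the BMS754807 mean, with a difference of 0.33 ± 0.15 (adjusted p = 0.556). Without the muscle-rich tumours that difference was 0.21.

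The other complex II subunits differed less. Sdhd, the second anchor, was the least variable (residual SD 0.111). It lay at 12.13, 12.26 and 12.37 in control and at 12.27, 12.38 and 12.53 in the combination, where 6 of 6 tumours were above the control mean (0.14 ± 0.087, adjusted p = 0.944; 0.09 without the muscle-rich tumours). The iron-sulfur subunit Sdhb had 12.34, 12.43 and 12.59 in control, 12.13, 12.23 and 12.56 with BMS754807, 12.12, 12.39 and 12.59 with hydroxychloroquine and 12.28, 12.47 and 12.64 in the combination. Sdha, the flavoprotein that oxidises succinate, had group medians of 10.04, 10.14, 10.09 and 10.03 in the same order. Its difference between the combination and control was 0.02 ± 0.15.

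Complex III moves electrons from ubiquinol to cytochrome c. In the combination 3 of its 8 members lay above control (median difference -0.11), with 2 of 8 under either rescaling of the arrays. Uqcrh, the hinge protein that contacts cytochrome c1, had 13.25, 13.44 and 13.64 in control, 13.02, 13.25 and 13.38 with BMS754807, 13.18, 13.39 and 13.61 with hydroxychloroquine and 13.10, 13.21 and 13.45 in the combination. None of 6 BMS754807 tumours was above the control mean (-0.21 ± 0.10, adjusted p = 0.844), and over both settings of hydroxychloroquine the BMS754807 effect was -0.17 ± 0.072 (adjusted p = 0.823). Uqcrb was the least variable member of the complex (residual SD 0.130). The small subunit Uqcr10 was the most variable, from 9.85 in hydroxychloroquine tumour 3 to 11.77 in BMS754807 tumour 6. Cyc1, the cytochrome c1 subunit that the symbol rule leaves out, had group medians of 7.78, 7.78, 8.04 and 7.86 in the order control, BMS754807, hydroxychloroquine and combination.

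Complex IV, cytochrome c oxidase, reduces oxygen to water, and its nuclear subunits surround a core encoded by mitochondrial DNA. Both forms of subunit 4, which regulates the enzyme's response to ATP, had their lowest group mean in a group given hydroxychloroquine, the combination for Cox4i1 and hydroxychloroquine alone for Cox4i2. Cox4i1, the common form, had 13.13, 13.34 and 13.73 in control and 13.03, 13.44 and 13.98 with BMS754807. It had 12.76, 13.32 and 13.53 with hydroxychloroquine and 12.82, 12.97 and 13.32 in the combination. In the combination 5 of 6 tumours lay between 12.82 and 13.09, and none was above the control mean or the BMS754807 mean. The combination differed from control by -0.35 ± 0.15 (adjusted p = 0.944) and from BMS754807 by -0.44 ± 0.15 (adjusted p = 0.441). Without the muscle-rich tumours the latter was -0.23 (adjusted p = 0.848).

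Cox4i2 is the lung form of the subunit and is induced by low oxygen in some cells. Its signal was low and its distance from background is unknown, since the table has no detection calls. It lay at 3.71, 4.25 and 4.61 in control, 3.80, 4.60 and 4.85 with BMS754807, 3.37, 3.69 and 4.44 with hydroxychloroquine and 3.33, 3.92 and 4.29 in the combination. In each group given hydroxychloroquine, 1 of 6 tumours was above the control mean. The differences from control were -0.42 ± 0.20 for hydroxychloroquine (adjusted p = 0.979) and -0.32 ± 0.20 for the combination (adjusted p = 0.944). Averaged over both settings of BMS754807, the hydroxychloroquine effect was -0.52 ± 0.14 for Cox4i2 (adjusted p = 0.300) and -0.29 ± 0.11 for Cox4i1 (adjusted p = 0.468). Without the 5 muscle-rich tumours these were -0.47 and -0.18 (adjusted p = 0.524 and 0.800).

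**Figure D4:**
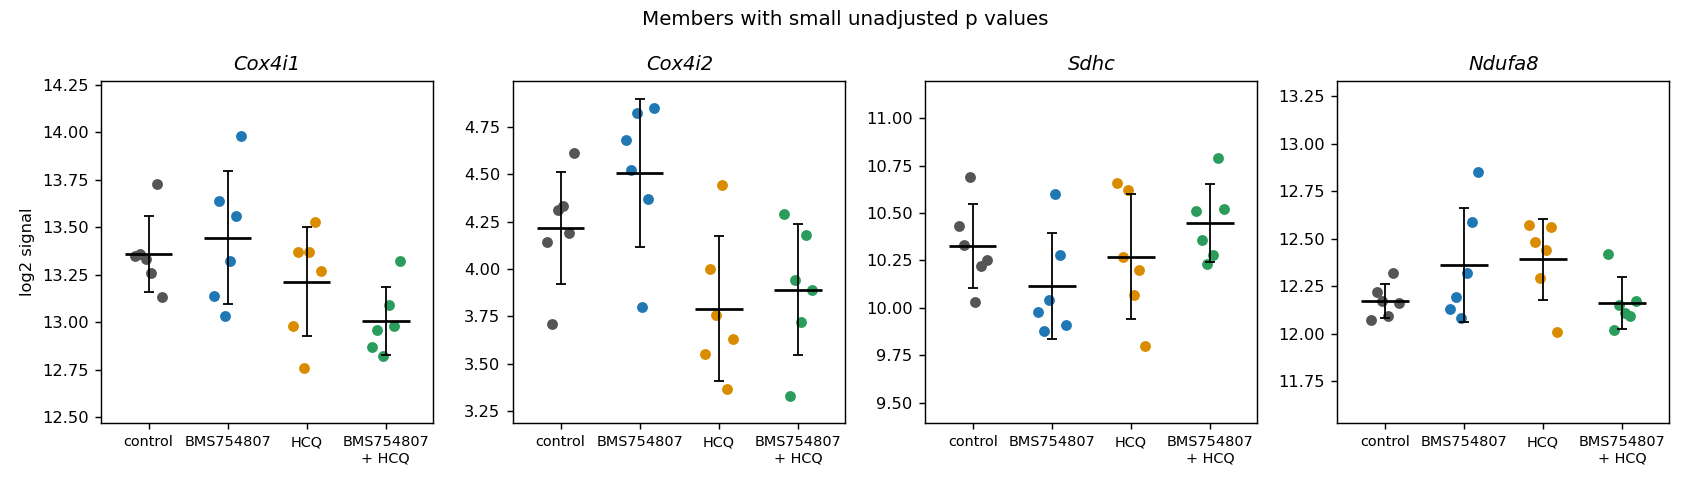
Log2 signal of 4 members in every tumour by group (HCQ is hydroxychloroquine; points are tumours, bars the mean, whiskers the SD, n = 6; each panel has its own axis range). Cox4i1 in the combination ends at 13.32 and Sdhc in the combination starts at 10.23, and each group overlaps its control in all 4 panels.

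Tissue forms of complex IV subunits followed skeletal muscle markers in part. Cox6a2, the heart and muscle form of subunit 6a, had 4.15, 5.16 and 7.33 in control, 4.76, 5.29 and 7.63 with BMS754807, 4.54, 5.00 and 10.49 with hydroxychloroquine and 4.17, 5.29 and 8.23 in the combination. The 5 muscle-rich tumours held its 5 highest values, from 7.33 to 10.49, and the other 19 tumours lay between 4.15 and 6.04. It was the only one of the 85 members whose values in those 5 tumours did not overlap the rest. The share of all genes that separate these tumours was not computed, so this count has no background to be set against. Muscle actin Acta1 was at 13.93 to 16.36 in the muscle-rich tumours and 4.31 to 9.94 in the others, and muscle creatine kinase Ckm at 8.43 to 11.26 and 6.20 to 8.16. Cox6a2 differed from control by 0.54 ± 0.86 with BMS754807, 0.49 ± 0.86 with hydroxychloroquine and 0.24 ± 0.86 in the combination, so its spread between tumours exceeded these differences.

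Cox8b, the muscle and brown fat form of subunit 8, lay at 3.69 to 5.48 in the muscle-rich tumours and 2.89 to 4.41 in the others. Its highest value was in BMS754807 tumour 2, which also had the highest Ucp1 (8.13, against at most 4.38 elsewhere), the uncoupling protein of brown fat. Cox7a1, a further muscle form, lay at 4.88 to 5.77 and 4.31 to 5.73 and did not separate the tumours. Cox8b, Cox7a1, Cox6b2 and Cox8c had mean signals under 5, so their distance from background is as uncertain as that of Cox4i2. The common partners overlapped between the sets: Cox6a1 at 15.38 to 15.87 against 14.87 to 15.64, Cox7a2 at 11.34 to 12.20 against 10.75 to 11.68, and Cox8a at 14.44 to 15.27 against 13.89 to 14.80. Their medians were higher in the muscle-rich tumours, by 0.18, 0.26 and 0.13. Cox7c, a common subunit without a tissue form here, was the least variable of complex IV (residual SD 0.120).

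**Figure D5:**
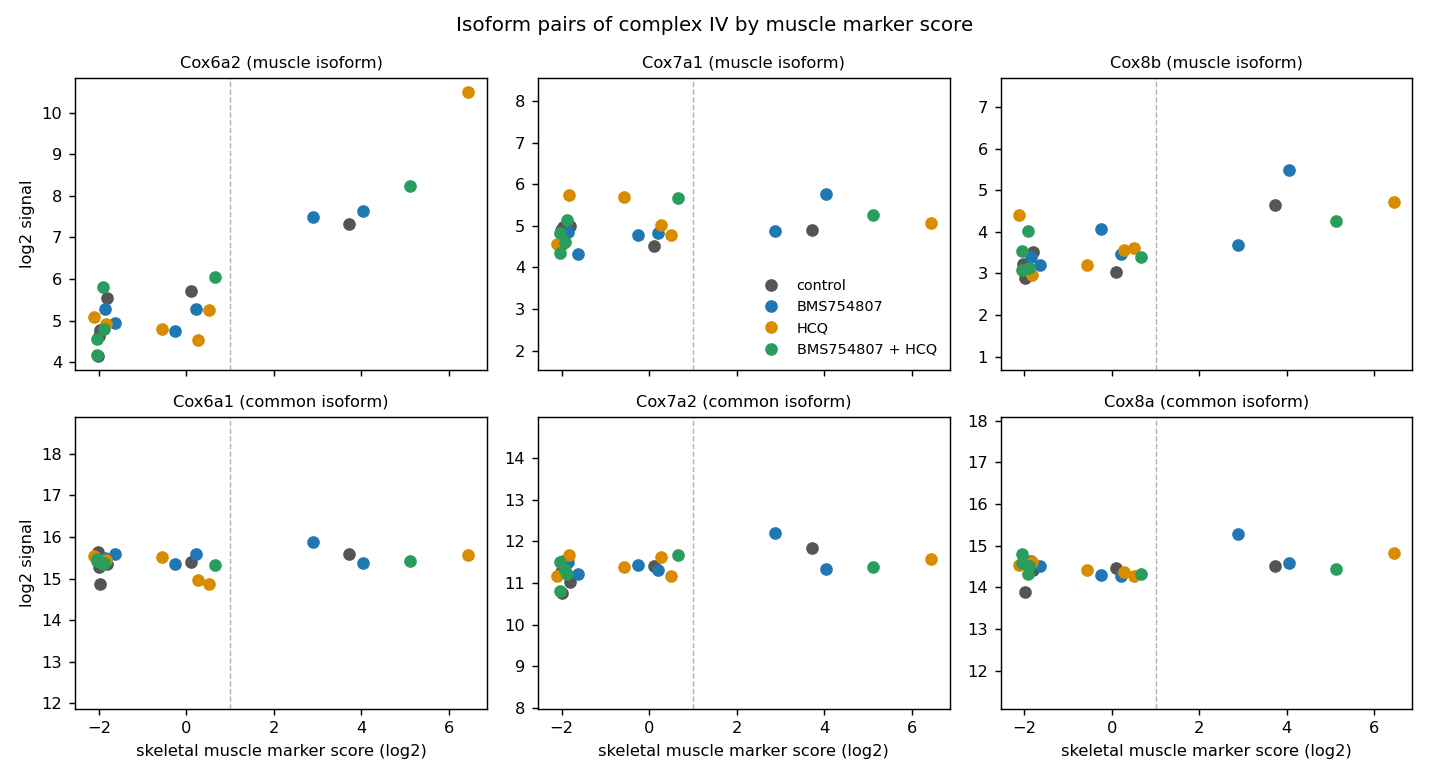
Log2 signal of 3 muscle forms of complex IV subunits (top) and of their common partners (bottom) against the skeletal muscle marker score of each tumour (log2), coloured by group, with HCQ for hydroxychloroquine; each panel spans the same number of log2 units and the dashed line marks a score of 1. Cox6a2 is at or above 7.33 right of the line and at or below 6.04 left of it, while Cox7a1 and the common partners overlap across it.

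The testis forms of complex IV, Cox6b2, Cox7b2 and Cox8c, had no unadjusted p under 0.05 in any of the 8 comparisons. Group medians, in the order control, BMS754807, hydroxychloroquine and combination, were 3.73, 3.71, 3.89 and 3.35 for the testis form Cox6b2. They were 5.12, 5.08, 5.17 and 5.08 for Cox7b2 and 4.43, 4.27, 4.43 and 4.31 for Cox8c, both also mainly testis forms. Their partners Cox6b1 (12.58, 12.68, 12.56 and 12.43) and Cox7b (13.96, 14.06, 14.07 and 13.95) varied less. Ndufa4l2, a paralogue of Ndufa4 that low oxygen induces, was singled out after its values were seen. It lay at 7.16, 7.63 and 10.66 in control, with the highest value in muscle-rich control tumour 5, and at 6.62, 7.50 and 7.79 in the combination. The difference was -0.69 ± 0.49 (adjusted p = 0.944), and -0.17 without that control tumour (adjusted p = 0.999).

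The interaction compares the BMS754807 effect with and without hydroxychloroquine. For complex IV it was above 0 in 1 of 20 members, with a median of -0.16, against 9908 of 19505 genes (50.8%). Both rescalings of the arrays gave 2 of 20, and without the muscle-rich tumours it was 8 of 20 with a median of -0.065. Leaving out single tumours gave between 0 and 4 of 20. The interaction was above 0 in 0 of 16 muscle genes (median -1.84), 1 of 9 adipocyte genes (-0.705), 0 of 7 macrophage genes (-0.27), 0 of 7 fibroblast genes (-0.56) and 0 of 5 leukocyte genes (-0.51), but in 10 of 13 epithelial genes (0.23), and their part in the complex IV values was not tested. Cox7a2l lay in the other direction from most complex IV members with BMS754807 alone, at 13.30, 13.44 and 13.61 against 13.31, 13.53 and 13.90 in control (-0.13 ± 0.10, adjusted p = 0.953), and by -0.06 without control tumour 5.

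The smallest unadjusted p of a member in the interaction was that of Ndufa8. Its levels were 12.07, 12.16 and 12.32 in control, 12.08, 12.26 and 12.85 with BMS754807, 12.01, 12.46 and 12.57 with hydroxychloroquine and 12.02, 12.13 and 12.42 in the combination. Each agent alone thus had a higher median than control and the combination did not, an interaction of -0.42 ± 0.18 (adjusted p = 0.951). Ndufb6 (-0.36 ± 0.20) and Ndufa10 (-0.35 ± 0.17) gave the same sign, each with an adjusted p of 0.951. The sign was the opposite for Sdhc (0.39 ± 0.22), Sdhb (0.23 ± 0.15) and Atp5e (0.35 ± 0.33), at the same adjusted p. Without BMS754807 tumour 1 the Atp5e value was 0.16, and without combination tumour 6 it was 0.22. Without the muscle-rich tumours the Ndufb6 value was -0.097.

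The ATP synthase couples a proton-driven rotor in the membrane to a catalytic head in the matrix. Of its 17 members, 11 lay above control with BMS754807 (median difference 0.0067), 7 with hydroxychloroquine (-0.037) and 7 in the combination (-0.01). The catalytic head varied little: Atp5a1, its alpha subunit, had group medians of 16.53, 16.52, 16.50 and 16.57 and the smallest residual SD of the complex (0.116). Atp5b, the catalytic beta subunit, had 15.94, 15.98, 16.07 and 15.99. Atp5k, subunit e, helps to join the enzyme into dimers and was the most variable member (residual SD 0.424). It ran from 6.28 in hydroxychloroquine tumour 3 to 8.38 in BMS754807 tumour 4. It had 7.46, 7.74 and 8.38 with BMS754807 and 6.56, 7.34 and 7.81 in the combination (-0.51 ± 0.23, adjusted p = 0.556). Atp5l, subunit g, lay at 12.24, 12.34 and 12.42 in control and at 11.87, 12.10 and 12.33 in the combination, where none of 6 tumours was above the control mean (-0.235 ± 0.12, adjusted p = 0.944). Atp5e, the epsilon subunit of the central stalk, ran from 7.93 to 9.77 with group medians of 8.80, 8.87, 8.87 and 8.93.

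The 8 members with an unadjusted p under 0.05 between the combination and BMS754807 came from all 5 complexes. Beside Cox4i1, Cox4i2, Atp5k and Sdhc they were Ndufa1, Ndufa9, Ndufb7 and Uqcr11, named here because of that count. Ndufb7 of the membrane arm had 10.30, 10.61 and 11.13 with BMS754807 and 9.92, 10.16 and 10.53 in the combination (-0.42 ± 0.17, adjusted p = 0.514). Ndufa1 gave -0.355 ± 0.17 (adjusted p = 0.578), Ndufa9 -0.21 ± 0.10 (adjusted p = 0.563) and Uqcr11 -0.33 ± 0.15 (adjusted p = 0.554). All but Sdhc were lower in the combination. Beside the 8 members, 8.61% of all genes had such a p. The count was 2 without the muscle-rich tumours (6.41% of all genes) and 4 with the muscle score as a covariate (7.89%).

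Genes that build or feed the chain were taken as lists. Of 44 measured assembly factors, 0 passed in any comparison. For the combination against BMS754807, 30 of 44 lay above 0 (median 0.05), against 49.3% of all genes. At an unadjusted p under 0.05, 5 were higher and 1 lower in that comparison (8.61% of all genes). For the hydroxychloroquine main effect 6 were higher and 1 lower (8.09% of all genes). Against control, 0 were higher and 1 lower with BMS754807 (median -0.057), 1 and 2 with hydroxychloroquine (-0.05) and 3 and 0 in the combination (-0.011), beside 5.88%, 4.81% and 5.06% of all genes. The counts were 2 and 0 for the combination against hydroxychloroquine, 2 and 0 for the BMS754807 main effect and 3 and 0 for the interaction (5.39%, 5.72% and 5.05% of all genes). Of 16 measured genes of the TCA cycle and pyruvate dehydrogenase, 12 lay above control with BMS754807 (median 0.087) and 13 in the combination (median 0.021), with 0 past the test. Of 6 measured electron carriers and subunits outside the symbol rule, 5 lay above control with BMS754807 and 4 in the combination, again with 0 past the test. Of all genes, 50.1% lay above control with BMS754807 and 51.4% in the combination.

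Of these 4 lists, the regulators of respiratory genes had the largest median in the combination. There 13 of 16 lay above control (median 0.11) and 13 of 16 above BMS754807 (median 0.14), with 0 past the test. Of all genes, 51.4% and 49.3% lay above 0 in these comparisons. Ppargc1a encodes the coactivator PGC-1 alpha, which drives mitochondrial biogenesis. It had 10.16, 10.52 and 11.14 in control, 9.93, 10.20 and 10.57 with BMS754807, 10.65, 10.96 and 11.32 with hydroxychloroquine and 10.53, 10.77 and 11.72 in the combination. All 6 hydroxychloroquine tumours exceeded the highest BMS754807 tumour, a contrast picked out after the values were seen and not among the fitted comparisons. The share of all genes that separate these groups was not computed, so the separation has no background to be set against. The hydroxychloroquine main effect of Ppargc1a was 0.53 ± 0.14 (limma, adjusted p = 0.300). In that comparison the 85 subunits had a median of -0.015 and 35 above 0, against 50.2% of all genes. Tfam, which packages and transcribes mitochondrial DNA, had group medians of 10.04, 10.19, 9.92 and 10.05. Nrf1, which binds the NRF1 core, had medians of 12.23, 12.46, 12.34 and 12.39, and Gabpa, the DNA-binding subunit of GABP, had 13.82, 13.78, 13.73 and 13.85.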

How the data were processed

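Gene expression was measured in 24 tumours, 1 array each. Per the submitters' processing notes, the authors used Transcriptome Analysis Console 4.0. The deposited table held log2 signal for 22206 probe sets with 0 missing values. The log base was inferred from the values (1.45 to 19.0), and the background correction, normalization, summarization and genome build are not given in the sources used here. Precision is limited by the number of arrays, which carry no read depth.

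Symbols came from the platform annotation (19572 probe sets with 1 symbol, 2634 with none). The probe set with the highest mean was kept per gene, which left 19505 genes. All 85 members matched RefSeq gene identifiers. Groups came from the titles. All 24 arrays entered one limma 3.58.1 model with 4 group means (R 4.3.3, lmFit and eBayes, 20 residual degrees of freedom), with two-sided tests and Benjamini-Hochberg adjustment over 19505 genes. The procedure was tested on simulated data.

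The members and lists were chosen with earlier results of these data known. Named members were those past the threshold, the 3 of smallest p in each direction for comparisons with control and the interaction, all Sdh genes, complex IV tissue forms with their partners, and the most and least variable member of each complex. Others named were chosen after their values were seen. Alternatives were quantile normalization, centring on the array median, the mean of probe sets, a minimum mean of 5, trend and robust eBayes, array weights, a replicate block, the muscle score as covariate, no muscle-rich tumours, the compared groups only and each tumour left out.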

Additional observations from a re-analysis of the deposited data

Results flagged for a closer look

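Within each group of 6, the highest and lowest tumour were compared with their nearest neighbour for the named members and for the complex medians. Of 168 group sets, 11 had a tumour far from the others (Dixon's test, where chance flags about 1 in 20). That rate does not hold for members named for their large spread, among them Cox6a2, Ndufv3 and Uqcr10. Cox6a2 was 10.49 log2 in hydroxychloroquine tumour 5 against 4.54 to 5.26 in the other 5 tumours of its group, and that tumour had the highest muscle marker score (6.44). Cox8b was 4.64 in control tumour 5 (others 2.89 to 3.51) and 5.48 in BMS754807 tumour 2 (others 3.21 to 4.06), both muscle-rich tumours. BMS754807 tumour 6 was far from its group for Cox8a (15.27 against 14.27 to 14.63), Cox7a2 (12.20 against 11.22 to 11.51) and Cox6b2 (4.79 against 3.29 to 3.73).

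The others were single low or high values. Cox8a was 13.89 in control tumour 2 (others 14.42 to 14.62), and Ndufv3 was 5.82 in control tumour 4 (others 6.85 to 7.27). Sdhd was 12.57 in BMS754807 tumour 1 (others 12.27 to 12.35), and Uqcr10 was 10.73 in combination tumour 6 (others 10.24 to 10.41). The complex III median deviation was -0.236 in BMS754807 tumour 3 (others 0.0052 to 0.097).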

How the results depend on the processing

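No alternative brought a member past the threshold. There were 418 alternatives on the 16 counts and medians, and 767 on 31 named differences. The counts stayed at 0, and the named differences kept their side of the threshold and their sign. Some alternatives could not have changed a sign. Each member has 1 probe set, so the mean of probe sets left its values as they were. The minimum mean of 5, trend and robust eBayes, the replicate block and the compared groups only could change p-values but no member's difference. The alternatives for Ndufa4l2 were chosen after seeing the data, and ran from -0.87 to -0.17. The medians moved by less than the SD of single tumours pooled within groups (0.117), a wide yardstick for differences between groups. In some settings 4 of them changed sign, the range for hydroxychloroquine against control being -0.067 to 0.040. The lowest adjusted p of any member was 0.148, for Cox4i2 in the hydroxychloroquine main effect without hydroxychloroquine tumour 4. A minimum mean of 5 left 80 of 85 members tested, without Cox4i2.

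The replicate numbers in the titles are not said to pair the tumours. Residuals of same-numbered tumours had a median correlation of -0.0075 (36 pairs, -0.251 to 0.305). For the others it was 0.0042 (-0.412 to 0.482). Such medians cannot exclude a pairing. Every group holds the same replicate numbers, so a replicate block could change p-values but no difference between groups. With it the counts past the threshold stayed at 0. The median for BMS754807 against control, 0.04, could not move, so it says nothing about a pairing.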
